A study of Mus musculus with 146 samples.

Results

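The 34 genes described here are those that the authors placed in clusters 4 and 6 of a table of 716 genes followed through relapsing-remitting EAE (experimental autoimmune encephalomyelitis), an induced disease of mice used to model multiple sclerosis, in which attacks are followed by recovery. Those clusters held 37 genes, and Apoe, Itgax and Cxcl13 were left aside as part of other groups. Cluster 4 contributed 20 genes (Afp, Bcl2l11, Ccl3, Cd83, Cpq, Ctse, Ctss, Fam46c, H2-M2, H2-M3, Lag3, Nfe2l2, Pdcd1, Pla2g2d, Prcp, Rab7b, Rad51b, Slc39a4, Tbc1d8 and Tnfsf13b) and cluster 6 contributed 14, of which 13 are described (Angptl7, B2m, Bcl2a1b, Fabp5, Fgl2, Fhit, Igsf6, Mmp14, Mrc1, Pros1, Rec114, Rpl39 and Wfdc17). The table holds genes that the authors chose, and how they chose and clustered them is not given in the sources used here. The members were thus chosen by a clustering that is taken to rest on the anti-HA values, which are therefore given below as a description with no test. All 34 symbols matched a RefSeq mouse gene, Fam46c under its current symbol Tent5c.

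All libraries came from brains of Cx3cr1-CreER:RPL22-HA mice, F1 of C57BL/6 and SJL, given 5 mg tamoxifen by gavage 4 times at 4 to 6 weeks of age, controls included; age at collection is not in the labels. Tamoxifen switches on a Cre recombinase in cells that use the Cx3cr1 promoter, mainly microglia but also macrophages of the brain's borders, and tags their ribosomes with HA. Groups followed the titles: initiation (4 replicates), max (6), remission (8), cure (5) and relapse (4), set against non-immunized (NI) mice (6), and each replicate number of a group has an anti-HA, a mouse IgG1 and an input library. The treatment label names the disease for every library, NI ones too. A separate set held 4 replicates of Ifngr ko/fl and 4 of Ifngr ko/wt mice on the same background, whose titles name EAE but no stage; both genotypes are written with a ko allele, and Cre acts on the floxed allele of ko/fl mice in Cx3cr1-expressing cells. T cells sorted from brain gave 6 CD25pos libraries of ko/fl and 5 of ko/wt mice, and 6 CD25neg libraries of each genotype. Anti-HA libraries hold mRNA bound to tagged ribosomes, IgG libraries hold what the procedure carries over without the tag, and inputs hold RNA of the whole homogenate.

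Each value is a whole number of reads scaled by 1 factor per library, which was worked out from the values themselves. Over the 716 genes, anti-HA libraries held 152704 to 880410 reads, inputs 49902 to 159540 and IgG libraries 6775 to 162205; over the 34 genes these were 4832 to 68896, 424 to 6848 and 138 to 4528, so single input and IgG values rest on few reads. Microglial markers were looked up: 5 of 11 were in the table (P2ry12, Gpr34, Fcrls, Siglech and Selplg), and their summed level in NI mice was 11062 to 25665 in anti-HA libraries, against 131 to 176 in inputs. Of all 716 chosen genes, 82.1% were called higher in anti-HA than in input in NI mice. The marker levels are thus no independent check of the libraries. Of 15 border macrophage markers 10 were in the table, Mrc1 among them. Markers of T and NK cells, neurons, astrocytes and oligodendrocytes from the lists used were not among its genes, so a share of those cells in any library was not tested. B2m, Igsf6 and Pros1 were lowest of their group in the same 3 anti-HA libraries, initiation 3, max 6 and remission 5.

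As background, microglia are the resident macrophages of the brain, and in inflammation they take up tissue debris, process protein in endosomes and lysosomes, and show peptides to T cells on major histocompatibility complex (MHC) molecules. The genes fall into such roles: antigen presentation (B2m, H2-M2, H2-M3, Ctss, Ctse), receptors and ligands that tune lymphocytes (Lag3, Pdcd1, Cd83, Tnfsf13b, Fgl2), secreted or matrix-acting proteins (Ccl3, Mmp14, Pros1, Wfdc17, Pla2g2d, Angptl7, Afp), lipid, lysosome, vesicle and stress genes (Fabp5, Cpq, Prcp, Nfe2l2, Rab7b, Tbc1d8, Slc39a4), and genes of cell survival, RNA, DNA and ribosomes (Bcl2a1b, Bcl2l11, Fam46c, Rad51b, Fhit, Rec114, Rpl39). Interferon gamma acts through a receptor encoded by Ifngr1 and Ifngr2 on genes with GAS elements, while other interferons also act through ISRE elements.

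RefSeq promoter windows (GRCm38.p6, which is mm10; 250 bases before to 50 after the start of the gene) were matched for 26 of the 34 genes. Each window was searched on both strands for GAS (TTCNNNGAA), ISRE (GAAA, any NN, then GAAA), an NF-kB type site (GGGA, any NN, then TTCC), a PU.1 core (GAGGAAG) and an E-box (CACGTG). A GAS was found in 3 windows, those of H2-M3, Fgl2 and Pros1 (11.5%, against 7.56% of 529 other promoters of the table and 8.47% of 27025 RefSeq promoters). An ISRE was found in those of B2m and Ctss (7.69%, against 8.51% of the table and 3.49% of RefSeq promoters). The PU.1 core was in 6 windows (Ctss, Pdcd1, Pla2g2d, Bcl2a1b, Mrc1 and Wfdc17; 23.1%, against 17.2% and 13.5%), the E-box in Rec114 alone (3.85%, against 10.4% and 7.24%) and the NF-kB type site in B2m alone (3.85%, against 2.65% and 1.43%). The 4 windows below, each with a GAS or an ISRE, are those of B2m, H2-M3, Ctss and Fgl2, whose levels carry results that follow. They run up to the base before the start of the gene, all on the plus strand. The window of H2-M2, another antigen presentation gene, held none of the motifs searched and is not shown. Capitals mark GAS in H2-M3 and Fgl2, ISRE in B2m and Ctss, and in B2m also the NF-kB type site, which does not overlap the ISRE; the PU.1 core of Ctss starts at the last base shown and is not part of the stretch below. A match of letters is a description and was not tested as a binding site. B2m is at chr2:122147437-122147686, H2-M3 at chr17:37269984-37270233, Ctss at chr3:95526536-95526785 and Fgl2 at chr5:21372423-21372672.
B2m: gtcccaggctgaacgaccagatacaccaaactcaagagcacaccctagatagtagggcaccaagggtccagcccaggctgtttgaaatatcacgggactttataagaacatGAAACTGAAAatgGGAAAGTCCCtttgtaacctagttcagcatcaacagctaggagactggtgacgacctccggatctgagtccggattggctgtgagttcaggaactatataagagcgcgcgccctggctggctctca
H2-M3: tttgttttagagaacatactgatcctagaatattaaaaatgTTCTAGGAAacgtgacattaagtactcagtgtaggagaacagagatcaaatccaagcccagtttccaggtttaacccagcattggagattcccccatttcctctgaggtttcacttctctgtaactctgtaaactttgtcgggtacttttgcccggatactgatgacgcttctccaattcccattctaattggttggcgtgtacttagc
Ctss: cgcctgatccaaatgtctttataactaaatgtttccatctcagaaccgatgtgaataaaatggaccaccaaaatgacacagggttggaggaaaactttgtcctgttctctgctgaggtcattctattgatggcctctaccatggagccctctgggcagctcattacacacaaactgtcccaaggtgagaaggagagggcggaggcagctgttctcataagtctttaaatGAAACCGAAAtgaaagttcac
Fgl2: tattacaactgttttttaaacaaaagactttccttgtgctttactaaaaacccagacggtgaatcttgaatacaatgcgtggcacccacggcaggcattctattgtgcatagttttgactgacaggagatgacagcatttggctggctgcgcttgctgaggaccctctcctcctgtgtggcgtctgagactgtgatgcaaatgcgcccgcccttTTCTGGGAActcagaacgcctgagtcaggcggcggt

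In anti-HA libraries, 26 of the 34 genes had a mean above that of NI mice in remission, cure and relapse alike, as had 58.4% of all 716 genes, and 13 were at least 2-fold higher in all 3 of those stages, as were 19% of all genes. At least 2-fold higher were 13 genes at initiation, 18 at max and 22 in remission, then 17 each in cure and relapse, beside 62.8%, 60.2%, 40.2%, 20.3% and 25.1% of all genes. The median log2 difference from NI was 0.71, 1.07, 1.24, 0.99 and 1.01 over the 34 genes, while over all 716 it was 1.24, 1.19, 0.80, 0.19 and 0.44. All libraries lay above all NI libraries for 8 genes at initiation (59.1% of all genes), 8 at max (53.6%) and 14 in remission (25.1%), then 11 in cure (11.7%) and 15 in relapse (23.5%). Since the rule used these values, the shares only describe the clusters. The clusters differed in course: 17 of the 20 genes of cluster 4 had their highest mean in remission, and 9 of the 14 genes of cluster 6 had it in relapse.

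The choice of scaling moved these differences. With TMM factors over the 716 genes, the median difference of all genes from NI came to between 0.071 and 0.154 at each stage, and the genes with a mean above NI became 11 of 34 at initiation, against 23 with the deposited size factors. The same counts were 18 against 27 at max, 24 against 28 in remission, 27 against 29 in cure and 28 against 32 in relapse. With the deposited size factors, 575 of all 716 genes had a mean above NI at initiation, 576 at max and 564 in remission. The number was 432 in cure and 497 in relapse, and all genes were not counted with TMM factors. In all 3 late stages 24 genes stayed above NI with TMM factors, all but Bcl2l11 and Rec114 of the 26. TMM factors bring the typical gene of the table near 0, so a sign with them is relative to that gene. It is no measure of an absolute rise or fall. Signs below that turn with TMM factors are named where the value is given.

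**Figure D1:**
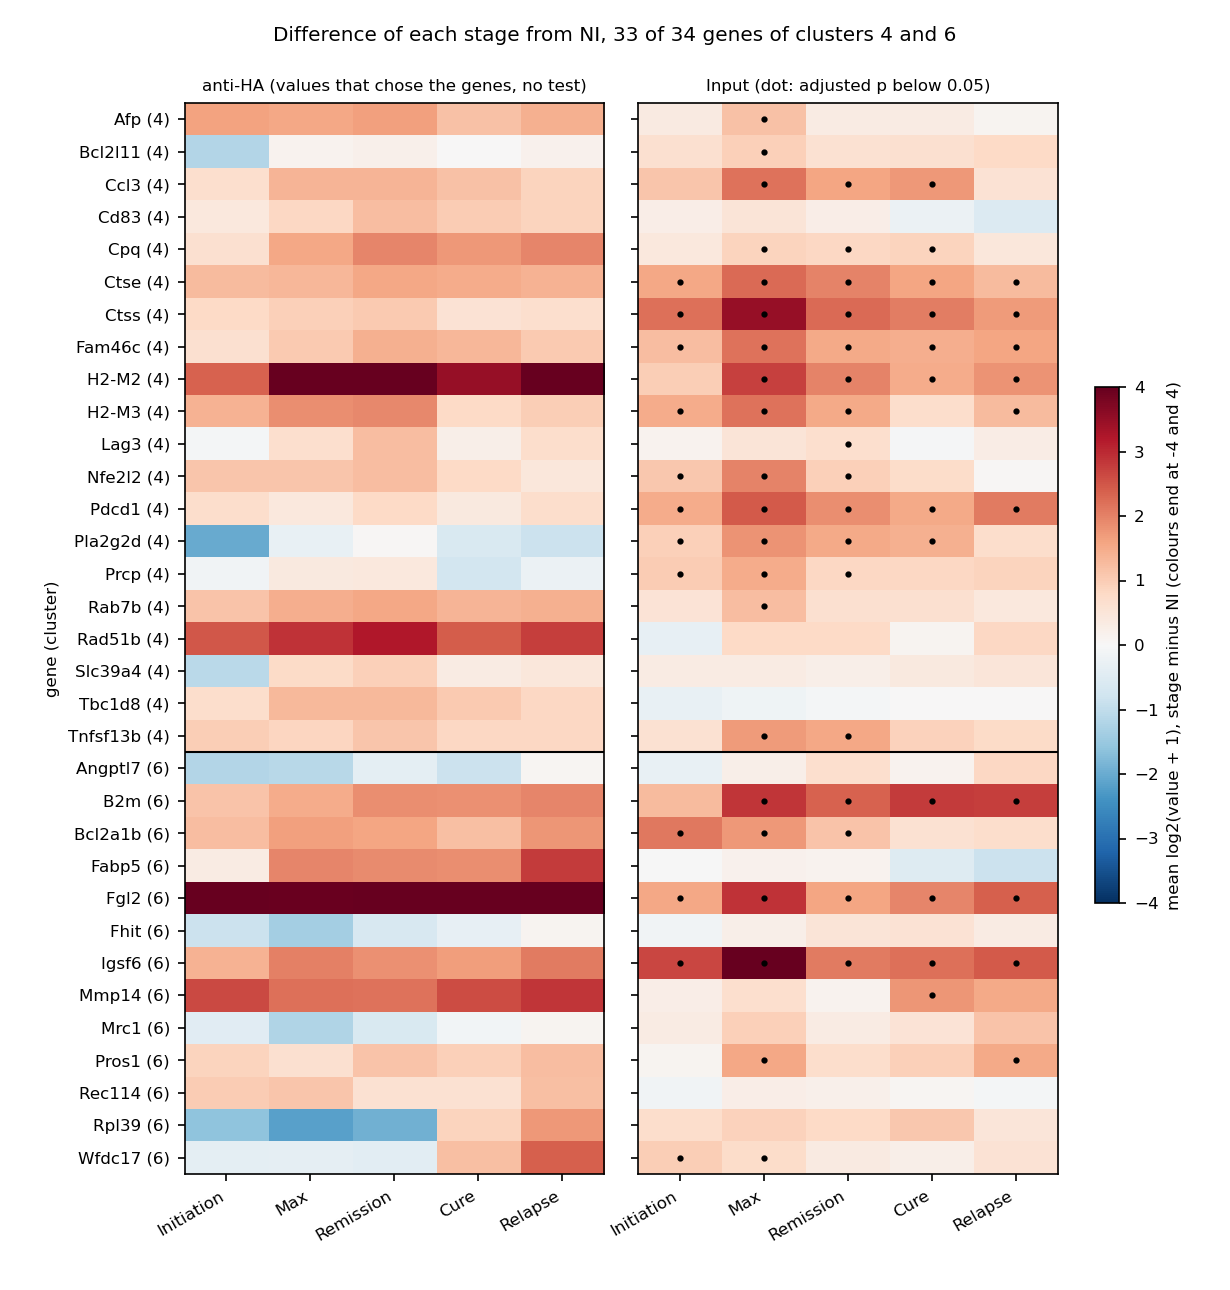
Mean log2(value + 1) of each stage minus that of NI mice (colour, ending at -4 and 4) for 33 of the 34 genes (rows, cluster in brackets), in anti-HA libraries (left, no test) and inputs (right, dots mark a limma adjusted p below 0.05). In anti-HA libraries Rpl39 and Wfdc17 are below NI up to remission and above it in cure and relapse; in inputs dots are most frequent at max, with 21 of the genes shown.

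Antigen presentation genes had late means above those of NI mice. B2m encodes beta-2 microglobulin, the light chain of MHC class I molecules. Its anti-HA values were 689.6 to 1060 (median 783) in NI mice, 1305, 5979, 455 and 3254 at initiation and 623 to 3685 (median 2964) at max. They were 1075 to 6289 (median 2964) in remission, 4854, 2830, 1575, 3732 and 2648 in cure, with 1986, 3193, 3944 and 4255 in relapse. Every library of remission, cure and relapse lay above every NI library, while the third initiation library and the sixth of max fell below the NI range, and means were 4.12, 3.72 and 3.98 times the NI mean in the 3 late stages.

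H2-M3 and H2-M2 are non-classical MHC class I genes of the M region on chromosome 17, 206 kb apart, and the H2-M3 molecule is known for presenting peptides that begin with formyl-methionine. Anti-HA values of H2-M3 were 41.1 to 61.5 (median 50.2) in NI mice, 125, 192, 122 and 105 at initiation and 124 to 263 (median 184) at max. They were 116 to 307 (median 186) in remission, 129, 73.2, 63.0, 101 and 87.8 in cure, with 68.6, 95.9, 118 and 122 in relapse. No library of any disease stage overlapped the NI range, and the mean was 3.98 times that of NI mice in remission but 1.8 times in cure and 2.01 times in relapse.

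For H2-M2, anti-HA values were 0 to 5.87 (median 1.73) in NI mice, 3.9, 42.5, 13.5 and 6.69 at initiation and 25.3 to 119 (median 65.1) at max. They were 29.0 to 178 (median 60.7) in remission, 15.4, 11.1, 21.3, 43.3 and 77.1 in cure, with 50.3, 83.3, 45.9 and 57.7 in relapse. From max on all libraries exceeded the NI range, and the relapse mean of 59.3 ± 16.7 (SD, n = 4) stood against 2.12 ± 2.29 in NI mice (SD, n = 6). Reads of H2-M genes may be split with close relatives, which makes their levels uncertain.

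Ctss encodes cathepsin S, the lysosomal protease that trims the invariant chain so that MHC class II molecules can be loaded. Its anti-HA values were 7785 to 14262 (median 10281) in NI mice, 17024, 16599, 15118 and 23543 at initiation and 10400 to 33760 (median 20707) at max. They were 13785 to 27602 (median 21391) in remission, 18239, 12579, 9694, 17658 and 21379 in cure, with 11519, 18607, 14921 and 23131 in relapse. The initiation libraries lay above the NI range and those of the later stages overlapped it, with means of 2.06, 1.51 and 1.62 times the NI mean in remission, cure and relapse; with TMM factors its differences at initiation and max turned to -0.34 and -0.12 (log2). Ctse, an endosomal aspartic protease that lies 13.2 kb from Rab7b on chromosome 1, had anti-HA means of 23.9 in NI mice, 53.2 at initiation and 62.6 at max, then 70.8 in remission, 65.0 for cure and 60.7 for relapse.

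**Figure D2:**
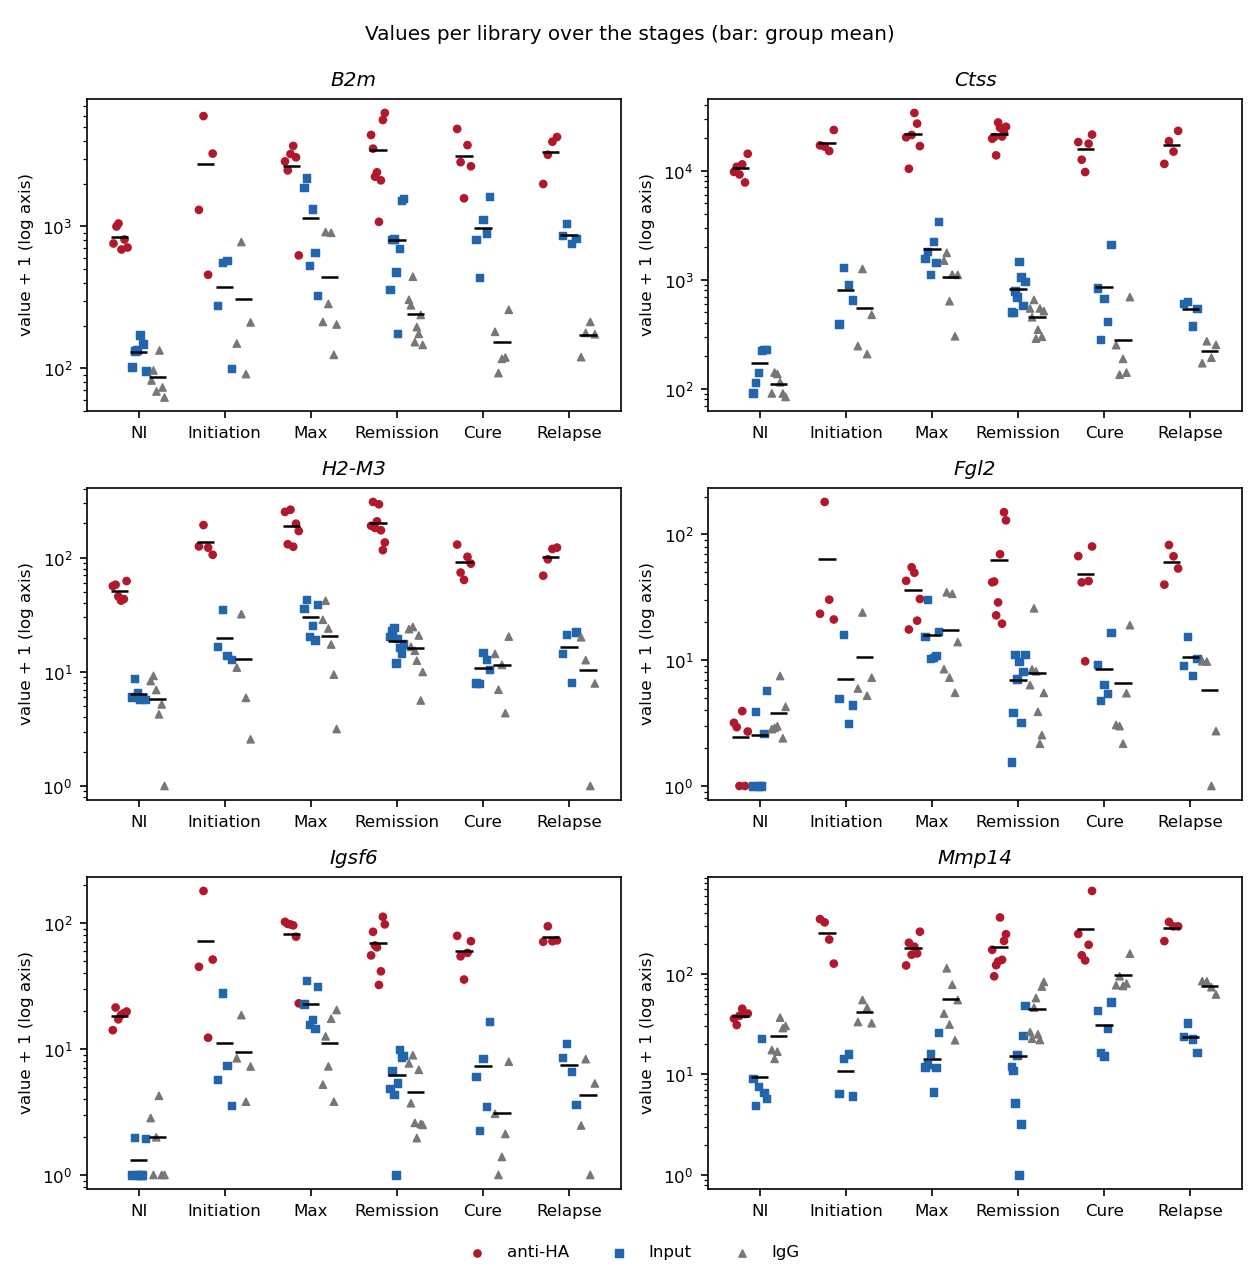
Values + 1 of single libraries (points, log axis) with group means (bars) by stage for B2m, Ctss, H2-M3, Fgl2, Igsf6 and Mmp14 in anti-HA, input and IgG libraries. Anti-HA libraries of H2-M3 from every disease stage lie above the NI range of 41.1 to 61.5.

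Among genes that tune lymphocytes, Fgl2 had the largest ratio to NI mice in relapse. It encodes a fibrinogen-like protein that is secreted to dampen immune responses or acts at the cell surface as a prothrombinase. Its anti-HA values were 0 to 2.93 (median 1.82) in NI mice, 22.4, 180.2, 29.3 and 20.1 at initiation and 16.6 to 53.8 (median 35.7) at max. They were 18.5 to 149 (median 40.9) in remission, 66.2, 40.6, 8.8, 41.6 and 79.2 in cure, with 38.9, 81.4, 66.0 and 52.6 in relapse. No disease library came within the NI range, the second initiation library was far above the other 3, and the relapse mean was 40.9 times the NI mean. In NI mice the means of Fgl2 were 1.46 in anti-HA libraries, 2.81 in IgG libraries and 1.54 in inputs, so the ratio is set against an anti-HA level no higher than the background.

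Lag3 encodes an inhibitory receptor that binds MHC class II and is also used by microglia at rest. In anti-HA libraries it read 495 to 828 (median 550) in NI mice, 324, 577, 752 and 630.4 at initiation and 575 to 1694 (median 891) at max. Later values were 802 to 2604 (median 1324) in remission, 1172, 526, 453, 681 and 758 in cure, with 698, 1179, 851 and 1134 in relapse. Remission was highest and overlapped NI mice only through NI library 4, while 3 of the 5 cure libraries lay within the NI range; with TMM factors the difference at max turned to -0.41 (log2).

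Pdcd1 encodes the checkpoint receptor PD-1. In anti-HA libraries it read 12.0 to 26.4 (median 21.2) in NI mice, 39.9, 18.2, 33.8 and 43.5 at initiation and 17.4 to 46.5 (median 24.5) at max. They were 21.6 to 65.0 (median 32.4) in remission, 38.2, 22.3, 15.2, 18.7 and 45.7 in cure, with 20.6, 27.1, 42.5 and 45.7 in relapse. Every stage overlapped the NI range, and the signs at initiation and max turned with TMM factors. Cd83, a surface protein of mature antigen-presenting cells, averaged 172 ± 40.6 in remission (SD, n = 8), against 71.4 ± 14.0 in NI mice (SD, n = 6), without overlap, and 132 ± 24.7 in relapse (SD, n = 4), also without overlap. Tnfsf13b, which encodes the B cell survival factor BAFF, averaged 75.9 ± 18.4 in relapse (SD, n = 4), against 43.3 ± 15.8 in NI mice (SD, n = 6), and overlapped the NI range at every stage; with TMM factors both genes turned below NI at initiation and max.

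Igsf6 encodes an immunoglobulin superfamily receptor of myeloid cells. The anti-HA values were 13.1 to 20.3 (median 17.9) in NI mice, 43.8, 178, 11.3 and 50.2 at initiation and 21.99 to 101 (median 95.4) at max. They were 31.2 to 111 (median 64.1) in remission, 77.9, 53.3, 34.5, 56.9 and 70.5 in cure, with 69.8, 93.0, 70.5 and 71.7 in relapse. From max to relapse no library overlapped the NI range, and the 4 relapse libraries lay close together.

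Mmp14, a membrane-bound matrix metalloproteinase that activates other proteases, had anti-HA values above those of NI mice from the first stage on. Its anti-HA values were 29.99 to 44.0 (median 38.1) in NI mice, 349, 324, 218 and 125 at initiation and 120.1 to 262 (median 172) at max. They were 93.5 to 363 (median 155) in remission, 248, 152, 135, 194 and 666 in cure, with 210.5, 328, 295 and 296 in relapse. No library of any disease stage overlapped the NI range, and means were 4.94, 7.46 and 7.55 times the NI mean in remission, cure and relapse. The fifth cure library was far above the other 4, and the cure median of 194 was below the mean of 279. In NI mice, however, Mmp14 was not called above IgG, and edgeR with TMM factors called it lower. It was called above IgG at every disease stage, but the cure call was lost in some leave-out fit. With TMM factors its difference from IgG turned below 0 at initiation, max, remission and cure.

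Pros1, which encodes protein S, a ligand of the phagocytic receptors Tyro3 and Mertk, had anti-HA means of 44.2 in NI mice, 104 at initiation and 69.3 at max, then 107 in remission, 84.2 for cure and 98.8 for relapse. Its low libraries, 13.5 in initiation 3, 18.7 in max 6 and 16.6 in remission 5, were also the low ones of B2m and Igsf6, and with TMM factors its differences at initiation and max turned to -0.20 and -0.44 (log2). Ccl3, a chemokine that draws leukocytes, had anti-HA means of 15.0 in NI mice, 24.4 at initiation and 42.5 at max, then 39.8 in remission, 37.6 for cure and 28.4 for relapse; only the remission libraries all lay above the NI range, and its difference at initiation turned to -0.38 (log2) with TMM factors.

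Rpl39 and Wfdc17 of cluster 6 had means below NI mice up to remission and above them in cure and relapse. Rpl39 encodes a protein of the large ribosomal subunit, and its anti-HA values were 10.9 to 61.0 (median 44.1) in NI mice, 18.5, 6.07, 18.02 and 8.36 at initiation and 2.07 to 25.0 (median 7.97) at max. They were 3.1 to 27.8 (median 8.48) in remission, 63.2, 157, 15.9, 166 and 62.4 in cure, with 216, 157, 169 and 44.4 in relapse. The relapse libraries other than library 4 lay above the NI range, 4 of the 5 cure libraries lay above it with the third inside, and means were 11.5 in remission, 93.1 in cure and 147 in relapse. Processed copies of ribosomal protein genes can share reads, so the level of Rpl39 is uncertain.

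Wfdc17, which encodes a small secreted protein with a WAP domain and lies 54.7 kb from Ccl3 on chromosome 11, had means of 5.56 in NI mice, 4.45 at initiation and 4.99 at max, then 4.89 in remission, 12.5 for cure and 30.1 for relapse. Its relapse values of 52.6, 20.4, 33.5 and 13.9 all lay above the NI range of 1.21 to 12.0 (median 3.4). Its IgG means of 9.19 at initiation and 6.81 at max lay above the anti-HA means of those stages, and were 1.26 in cure and 1.87 in relapse.

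**Figure D3:**
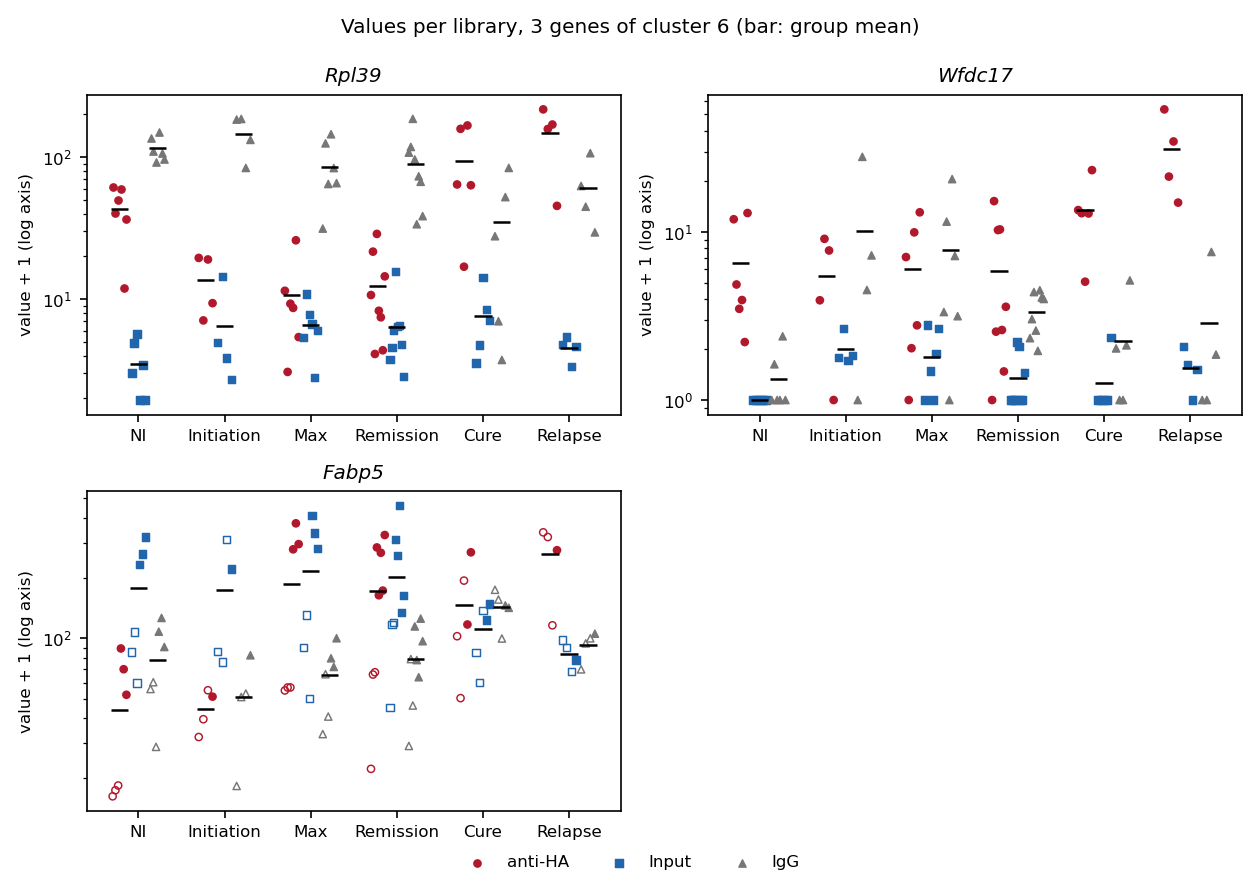
Values + 1 of single libraries (points, log axis) with group means (bars) by stage for Rpl39, Wfdc17 and Fabp5 in anti-HA, input and IgG libraries; for Fabp5 open points are libraries numbered 1 to 3. For Rpl39 all IgG libraries lie above all anti-HA libraries in NI mice, at initiation, at max and in remission, and the anti-HA means lie above the IgG means in cure and relapse, although with TMM factors the log2 differences turn below 0 in both stages.

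Fabp5, a carrier of fatty acids that is part of the disease-associated microglial programme, split by replicate number. In anti-HA libraries Fabp5 read 15.3 to 88.0 (median 34.3) in NI mice, 31.2, 38.5, 54.1 and 50.2 at initiation and 53.9 to 374 (median 167) at max. They were 21.3 to 327 (median 168) in remission, 102, 49.3, 193, 116 and 268 in cure, with 338, 319.7, 115 and 275 in relapse. In NI, max and remission the libraries numbered 1 to 3 all lay below the later ones, in anti-HA and input libraries alike: the anti-HA means of numbers 1 to 3 were 55.2 at max and 51.0 in remission, against 16.4 in NI mice, and those of the later numbers were 316 at max and 242 in remission, against 69.5 in NI mice. Of all 716 genes, 5 split in this way in all 3 groups of anti-HA libraries and 12 in inputs. The initiation difference of Fabp5 turned to -0.76 (log2) with TMM factors. The labels do not name what the numbers stand for. Reads of Fabp5 may be shared with processed copies. Its input mean was at or above its anti-HA mean in NI mice, at initiation, at max and in remission. The IgG mean of Fabp5 was so in NI mice and at initiation.

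Rad51b, a gene of DNA repair by recombination, was low in NI mice. The anti-HA values were 2.43 to 9.67 (median 4.12) in NI mice, 27.3, 101, 11.3 and 28.4 at initiation and 8.79 to 82.8 (median 51.9) at max. They were 19.8 to 89.1 (median 53.9) in remission, 53.7, 22.3, 12.9, 53.5 and 27.9 in cure, with 28.6, 57.2, 51.4 and 24.7 in relapse. All libraries but 1 of max exceeded the NI range, and the remission mean was 10.6 times the NI mean.

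A further set had means above NI mice in remission and relapse. Cpq, a lysosomal carboxypeptidase, Tbc1d8, a Rab GTPase-activating protein, Rab7b, a small GTPase of endosomes, Nfe2l2, the transcription factor NRF2 of the oxidative stress response, Slc39a4, a zinc importer, Fam46c, a poly(A) polymerase, Bcl2a1b, an anti-apoptotic BCL2 relative whose reads may be shared with other Bcl2a1 copies, and Afp, alpha-fetoprotein, had remission means of 4.02, 2.53, 2.93, 2.42, 2.02, 2.65, 3.03 and 3.06 times the NI mean, in that order. In relapse these ratios were 3.94, 1.85, 2.73, 1.44, 1.34, 2.12, 3.18 and 2.54. In NI mice, however, the IgG mean of Tbc1d8 and the input mean of Cpq were at or above their anti-HA means. IgG values of Tbc1d8 were 25.95 to 48.02 in NI mice and 43.77 to 77.74 in relapse, beside anti-HA values of 38.89 to 72.66 in relapse. Rec114, a meiotic recombination gene, was at 1.58 times in remission and 2.28 times in relapse, and its remission difference turned to -0.088 (log2) with TMM factors.

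Beside Rpl39 and Wfdc17, which were low in remission, 5 genes were not above NI mice in all 3 late stages, and Bcl2l11 was close to NI mice. Pla2g2d, a secreted phospholipase A2, averaged 42.0 ± 28.1 in relapse (SD, n = 4), against 70.4 ± 25.0 in NI mice (SD, n = 6); at initiation its values of 7.79, 16.2, 29.3 and 16.7 all lay below the NI range. Prcp, a lysosomal peptidase, had its highest mean in remission, 138, and averaged 62.8 in cure and 85.2 in relapse, against 101 in NI mice; its remission difference turned to -0.30 (log2) with TMM factors. Angptl7, an angiopoietin-like secreted protein, averaged 78.8 in cure and 147 in relapse, against 142 in NI mice, and Fhit, a dinucleoside triphosphate hydrolase, averaged 33.9 and 44.6, against 42.0 in NI mice. Mrc1, the mannose receptor, averaged 23.8 at max and 59.0 in relapse, against 57.2 in NI mice. Bcl2l11, the pro-apoptotic BIM gene, averaged 35.6 in relapse, against 30.7 in NI mice, and lay below the NI range at initiation. The small relapse differences of Angptl7, Fhit, Mrc1 and Bcl2l11 turned below 0 with TMM factors.

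Whether the genes also differed in the whole brain was tested on the input libraries, which are taken not to have entered the clustering. Same-numbered anti-HA and input libraries deviated together in 29 of 33 pairs, so the inputs are not fully independent of the rule. Each stage was set against NI mice with limma on log2(value + 1), and p-values were adjusted over all 716 genes. Ctss, Ctse, Igsf6, Fgl2, Pdcd1 and Fam46c were called higher at all 5 stages, B2m at all but initiation and H2-M3 at all but cure. None of the 34 genes was called lower. Among the genes called at all 5 stages, only Ctss and Igsf6 kept every call with each library left out and with edgeR and TMM factors. The initiation calls of Fgl2 and Fam46c and the relapse call of Ctse were lost in some leave-out fit and with TMM factors. Higher were 12 genes at initiation (39% of all genes), 22 at max (53.1%) and 18 in remission (33.8%), followed by 12 in cure (25.1%) and 10 in relapse (26.7%), so the share among the 34 genes was near that of the table at initiation and relapse. Of all genes, 0.279% were called lower at initiation, 1.54% at max and 0% in remission, followed by 0.838% for cure and 0.978% for relapse. The median log2 fold change over the 34 genes was 0.66, 1.32, 0.81, 0.72 and 0.73, beside 0.53, 0.72, 0.39, 0.34 and 0.41 over all genes. By cluster, 8, 15, 13, 8 and 6 of the 20 genes of cluster 4 and 4, 7, 5, 4 and 4 of the 14 of cluster 6 were called.

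With edgeR on recovered reads and TMM factors, which brought the median of all genes to between 0.0095 and 0.084 at each stage, the calls were 7 higher and 2 lower at initiation (Fhit and Tbc1d8 lower), 16 and 1 at max, 10 and 1 in remission (Tbc1d8 lower in both), 10 and 1 in cure (Cd83 lower), and 8 and 2 in relapse (Cd83 and Fabp5 lower); no gene called by limma turned its sign. The count at initiation fell to 5 without the second initiation input. In bulk libraries, more cells of a type and more RNA per cell cannot be told apart.

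B2m rose in the inputs from max on. Its input values were 94.4 to 172 (median 133) in NI mice, 275, 552, 570.5 and 98.5 at initiation and 324 to 2188 (median 990.1) at max. They were 174 to 1562 (median 751) in remission, 804, 434, 1120, 898 and 1617 in cure, with 863, 1047, 755 and 823 in relapse. All libraries of max, remission, cure and relapse lay above the NI range. Its log2 fold change was 2.85 ± 0.46 (SE, limma adjusted p = 2.63e-06) at max, 2.35 ± 0.43 (SE, limma adjusted p = 4.43e-05) in remission, 2.80 ± 0.48 (SE, limma adjusted p = 6.32e-05) in cure and 2.76 ± 0.52 (SE, limma adjusted p = 0.000129) in relapse. At initiation it was 1.25 ± 0.52 (SE, limma adjusted p = 0.052), with 1 library inside the NI range, and without that library 4 the limma adjusted p = 0.00665.

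Ctss rose at every stage. Its input values were 90.5 to 229 (median 182) in NI mice, 391, 1286, 897 and 651 at initiation and 1105 to 3415 (median 1697) at max. They were 501 to 1468 (median 738) in remission, 836, 282, 668, 413 and 2095 in cure, with 608, 627, 376 and 539 in relapse. No disease library overlapped the NI range. The log2 fold change was 2.19 ± 0.40 (SE, limma adjusted p = 3.05e-05) at initiation, 3.48 ± 0.36 (SE, limma adjusted p = 5.60e-10) at max and 2.25 ± 0.34 (SE, limma adjusted p = 2.11e-06) in remission. In the last stages it was 2.06 ± 0.38 (SE, limma adjusted p = 0.000116) in cure and 1.71 ± 0.40 (SE, limma adjusted p = 0.00139) in relapse.

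Input values of H2-M3 were 4.72 to 7.76 (median 4.94) in NI mice, 15.7, 34.2, 12.8 and 11.9 at initiation and 18 to 42.1 (median 29.7) at max. They were 10.9 to 23.6 (median 17.5) in remission, 6.98, 6.88, 13.7, 11.9 and 9.5 in cure, with 13.5, 20.2, 7.01 and 21.3 in relapse. The libraries of initiation, max and remission lay above the NI range, and those of cure and relapse overlapped it. It rose at initiation (1.497 ± 0.30 SE, limma adjusted p = 0.00013), max (2.19 ± 0.27 SE, limma adjusted p = 2.19e-08), remission (1.502 ± 0.25 SE, limma adjusted p = 1.48e-05) and relapse (1.26 ± 0.30 SE, limma adjusted p = 0.00179), and its log2 fold change was 0.71 ± 0.29 (SE, limma adjusted p = 0.0622) in cure, which the test did not call. H2-M2 had 0 reads in all 6 NI inputs, and 3 reads over that group set a floor of 0.4658. Against this floor its input mean was at least 3.05-fold higher at initiation, at least 12.7-fold higher at max and at least 10.4-fold higher in remission. The bounds were at least 4.61-fold higher in cure and at least 6.02-fold higher in relapse. Single libraries set part of these bounds: they were 1.07-fold at initiation without library 2, 5.37-fold in remission without library 8 and 3.97-fold in relapse without library 2. At initiation the test did not call H2-M2 (limma adjusted p = 0.132). The limma adjusted p = 5.05e-06 at max, 0.000342 in remission, 0.0206 for cure and 0.008 for relapse. The cure call was lost without cure 3 or cure 5 (limma adjusted p = 0.0638 and 0.0834) and the relapse call without relapse 2 (limma adjusted p = 0.0582).

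Pdcd1 likewise had 0 reads in all 6 NI inputs, and its input values were 3.78, 5.67, 0.467 and 5.72 in relapse libraries. With the same floor its input mean was at least 5.27-fold higher at initiation, at least 10.1-fold higher at max and at least 6.04-fold higher in remission. It was at least 4.47-fold higher in cure and at least 8.39-fold higher in relapse. The bound at initiation was 2.84-fold without library 2. All 5 stages were called, with limma adjusted p = 0.00455 at initiation, 9.19e-07 at max, 5.43e-05 in remission, 0.00379 for cure and 0.000271 for relapse. The initiation call was lost without initiation 2 (limma adjusted p = 0.0645). Pdcd1 and Lag3 are also T cell genes, and the part of T cells in the homogenate was not tested. Lag3 passed the test in remission only (0.66 ± 0.26 SE, limma adjusted p = 0.0445), a call lost in 9 of the 14 inputs left out in turn, with adjusted p-values up to 0.0832; whether remission differs from the other stages was not tested. Ctse had log2 fold changes of 1.56 ± 0.37 (SE, limma adjusted p = 0.000905) at initiation, 2.27 ± 0.33 (SE, limma adjusted p = 4.93e-07) at max and 1.98 ± 0.31 (SE, limma adjusted p = 5.41e-06) in remission. Pla2g2d was called at every stage but relapse, with 1.51 ± 0.30 (SE, limma adjusted p = 0.000113) in remission. Its initiation call was lost in some leave-out fit and with TMM factors.

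Igsf6 had few reads in NI inputs. Its input values were 0 to 0.97 (median 0) in NI mice, 4.72, 26.7, 6.41 and 2.55 at initiation and 13.5 to 34.05 (median 18.9) at max. They were 0 to 8.82 (median 5.01) in remission, 5.08, 1.25, 7.35, 2.47 and 15.6 in cure, with 7.56, 10.1, 5.61 and 2.6 in relapse. The fourth remission library was at 0, inside the NI range, and all other disease libraries lay above it. The log2 fold change was 2.68 ± 0.55 (SE, limma adjusted p = 0.000142) at initiation, 4.10 ± 0.49 (SE, limma adjusted p = 1.05e-08) at max and 2.06 ± 0.46 (SE, limma adjusted p = 0.000456) in remission. In the last stages it was 2.21 ± 0.51 (SE, limma adjusted p = 0.00166) in cure and 2.46 ± 0.55 (SE, limma adjusted p = 0.00084) in relapse.

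Fgl2 was called at every stage as well, but its initiation call was lost in some leave-out fit and with TMM factors. Its input values were 0 to 4.72 (median 0.808) in NI mice, 3.93, 15.0, 2.14 and 3.4 at initiation and 9.25 to 29.6 (median 12.2) at max. They were 0.554 to 10.1 (median 6.64) in remission, 8.25, 3.75, 5.39, 4.45 and 15.6 in cure, with 8.1, 14.5, 6.54 and 9.36 in relapse. Max and relapse libraries lay above the NI range, and other stages overlapped it. Its log2 fold change was 2.88 ± 0.49 (SE, limma adjusted p = 5.21e-06) at max, 1.56 ± 0.46 (SE, limma adjusted p = 0.00608) in remission, 1.95 ± 0.51 (SE, limma adjusted p = 0.00462) in cure and 2.38 ± 0.54 (SE, limma adjusted p = 0.00112) in relapse, and the call in remission was lost with TMM factors (edgeR adjusted p = 0.0614).

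Mmp14 and Fabp5 differed from this pattern. Input values of Mmp14 were 3.88 to 21.9 (median 6.1) in NI mice, 5.5, 13.4, 15.0 and 5.1 at initiation and 5.68 to 25.2 (median 11.3) at max. They were 0 to 47.8 (median 10.5) in remission, 41.9, 15.7, 14.2, 27.7 and 51.6 in cure, with 22.7, 31.5, 21.5 and 15.6 in relapse. Every stage overlapped the NI range. Its log2 fold change was 1.77 ± 0.61 (SE, limma adjusted p = 0.0286) in cure, called, beside 0.68 ± 0.58 (SE, limma adjusted p = 0.323) at max, which turned below 0 with TMM factors, and 1.51 ± 0.65 (SE, limma adjusted p = 0.0781) in relapse, not called, and the cure call was lost without cure 1, cure 5, NI 2 or NI 6 (limma adjusted p from 0.0569 to 0.0968). For Fabp5 the input log2 fold change was 0.18 ± 0.50 (SE, limma adjusted p = 0.776) at max, 0.14 ± 0.46 (SE, limma adjusted p = 0.852) in remission, both of which turned below 0 with TMM factors, and -0.85 ± 0.55 (SE, limma adjusted p = 0.277) in relapse, none called, and its relapse values of 97.2, 88.8, 67.3 and 77.0 lay within the NI range of 58.9 to 319.9 (median 169.7); edgeR with TMM factors called it lower in relapse. Bcl2a1b and Nfe2l2 were called higher at initiation, max and remission, Bcl2a1b with 2.10 ± 0.47 (SE, limma adjusted p = 0.000477) at initiation and Nfe2l2 with 1.98 ± 0.35 (SE, limma adjusted p = 1.16e-05) at max. The remission calls of both genes and the initiation call of Nfe2l2 were lost in some leave-out fit and with edgeR and TMM factors. Cd83 had a log2 fold change of -0.54 ± 0.27 (SE, limma adjusted p = 0.143) in relapse, not called by limma, and was called lower by edgeR with TMM factors (edgeR adjusted p = 0.00659).

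Other genes of the same pathways are in the table, and their inputs give the setting. Of 16 MHC class I presentation genes, B2m and H2-M3 among them, 13 rose at initiation, 16 at max and 12 in remission, followed by 8 in cure and 9 in relapse. Of 11 MHC class II presentation genes, Ctss among them, 10, 11, 9, 9 and 9 rose, and of 20 lysosomal genes, with Ctse and Ctss, 11, 14, 12, 12 and 14. Of 7 co-stimulation and checkpoint genes, with Lag3, Pdcd1 and Cd83, 4, 5, 5, 4 and 4 rose; of 14 chemokine genes, with Ccl3, 11, 12, 12, 10 and 8; and of 11 matrix and protease genes, with Mmp14, 7, 9, 4, 6 and 3. Of all genes 39% rose at initiation, 53.1% at max and 33.8% in remission, followed by 25.1% in cure and 26.7% in relapse, so the matrix genes, with 4 of 11 in remission and 3 of 11 in relapse, were near the share of the table there. None of these lists held a gene that fell, and their median log2 fold changes at max were 2.45 for class I, 3.48 for class II, 1.73 for lysosome, 2.45 for checkpoints, 3.43 for chemokines and 1.51 for matrix, beside 0.72 over all genes. Of the 5 microglial markers 1, 2, 2, 2 and 1 rose and 1 fell at max, with medians of -0.093, 0.11, 0.38, 0.57 and 0.22. Of 2 B and plasma cell genes 1, 2, 2, 2 and 1 rose. Of 2 monocyte and dendritic cell genes 1 rose at initiation and 1 at max, and the 1 neutrophil gene rose at both. The 1 endothelial gene rose in remission and relapse. The part of these cells in the inputs was not tested. Of 10 border macrophage genes 2 rose at initiation, 4 at max and 0 in remission, cure and relapse. The summed input level of the 9 that are not described here was 36.2 to 51.4 in NI mice, 61.3 to 95.4 at initiation and 62.3 to 121 at max, then 49.8 to 72.3 in remission, 26.9 to 89.5 for cure and 42.1 to 52.3 for relapse, and its part in the rises at initiation and max was not tested.

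The level of each mRNA in the precipitate was set against that in the input of the same stage. The anti-HA libraries entered the clustering, so this contrast is not independent of the rule. Its p-values are thus no independent evidence of enrichment and only describe the genes. Called higher in anti-HA than in input were 34 of 34 genes in relapse (85.6% of all 716 genes), 31 in cure (83.4%), 31 in remission (95.7%), 29 at max (93.4%), 26 at initiation (94.1%) and 29 in NI mice (82.1%); Fabp5 was called lower at initiation (0.14% of all genes) and in NI mice (1.4%), and none of the 34 genes was lower at max (0.279%) or in remission, cure and relapse (0% each). With edgeR and TMM factors, which brought the median log2 difference of all genes to between 0.081 and 0.258 where limma gave 1.95 to 2.64, the genes called higher and lower were 22 and 3 in relapse, 24 and 5 in cure, 21 and 8 in remission, 10 and 11 at max, 8 and 8 at initiation and 19 and 6 in NI mice. Over all 716 genes these counts were 246 and 208 in relapse, 257 and 220 in cure and 277 and 243 in remission. They were 236 and 212 at max, 200 and 198 at initiation and 281 and 223 in NI mice.

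Lag3 was the most enriched of the 34 genes in relapse, at 6.67 ± 0.36 (SE, limma adjusted p = 1.38e-29) log2 units above input, followed by Angptl7 (5.01 ± 0.55 SE, limma adjusted p = 2.37e-13), Ctss (4.96 ± 0.43 SE, limma adjusted p = 3.86e-18) and Rpl39 (4.83 ± 0.63 SE, limma adjusted p = 9.65e-11). The smallest differences were those of Fhit (0.96 ± 0.38 SE, limma adjusted p = 0.0167), Tbc1d8 (1.09 ± 0.22 SE, limma adjusted p = 7.79e-06), Cpq (1.14 ± 0.32 SE, limma adjusted p = 0.000865) and Bcl2l11 (1.32 ± 0.44 SE, limma adjusted p = 0.00462), and all 4 turned below 0 with TMM factors. Fabp5 changed sides: its anti-HA minus input difference was -2.11 ± 0.51 (SE, limma adjusted p = 0.000138) in NI mice and -1.75 ± 0.63 (SE, limma adjusted p = 0.00719) at initiation, but 1.55 ± 0.63 (SE, limma adjusted p = 0.0192) in relapse, with an adjusted p of 0.0515 without the first relapse library and a negative sign with TMM factors. Fgl2 was not called in NI mice (0.13 ± 0.57 SE, limma adjusted p = 0.843), where TMM factors gave -2.15, and was 2.52 ± 0.70 (SE, limma adjusted p = 0.000764) in relapse, with 0.58 and an adjusted p of 0.4003 with TMM factors. At max, in remission and in cure the difference of Fabp5 from input was not called. Whether these differences differ between stages was not tested.

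**Figure D4:**
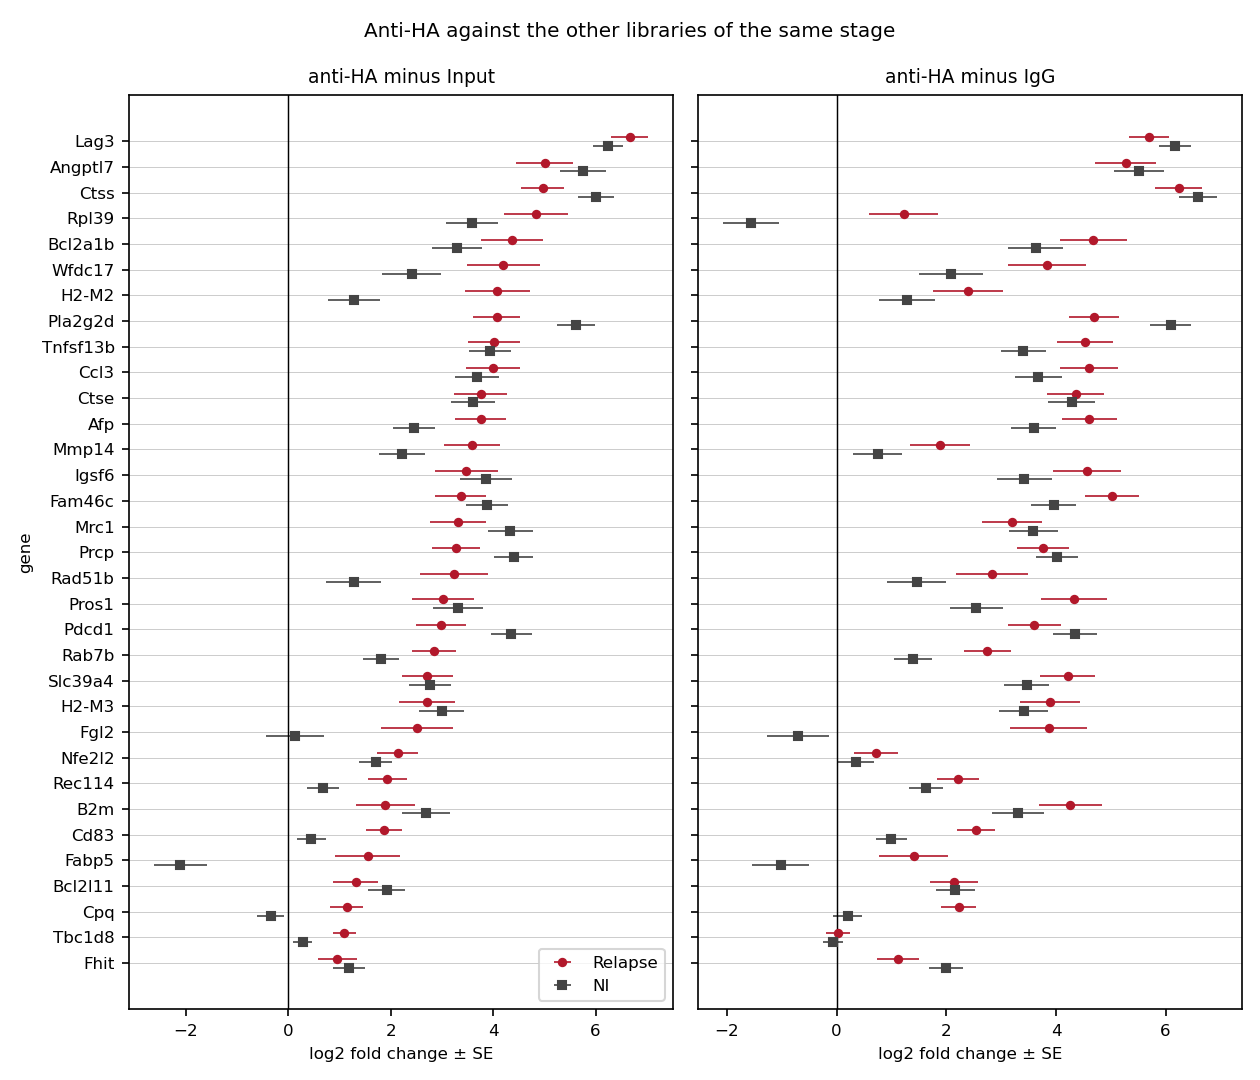
Log2 fold change (points, bars are the SE) of anti-HA over input libraries (left) and over IgG libraries (right) for 33 of the 34 genes, in relapse and in NI mice, from the fit over all 99 libraries with the deposited size factors. All 33 points of relapse against input are above 0, but 7 of them (B2m, Bcl2l11, Cd83, Cpq, Fabp5, Fhit and Tbc1d8) turn below 0 with TMM factors.

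The contrast with IgG also rests on the anti-HA libraries, so its p-values are no independent evidence either. Against the IgG background of the same stage, 31 of the 34 genes were called higher in relapse (88.1% of all genes), 32 in cure (87.6%), 30 in remission (96.4%), 31 at max (95.1%), 29 at initiation (95.4%) and 26 in NI mice (82.7%). Called lower were 2 genes in remission, at max and at initiation, Rpl39 among them, and 1 in NI mice, Rpl39; of all genes 0.698% were lower in remission, 0.419% at max, 0.279% at initiation, 0.978% in NI mice, 0.14% in cure and 0.279% in relapse. With TMM factors the genes called higher and lower were 16 and 4 in relapse, 17 and 5 in cure, 18 and 9 in remission, 14 and 9 at max, 7 and 9 at initiation and 17 and 9 in NI mice. Tbc1d8 (0.026 ± 0.22 SE, limma adjusted p = 0.911), Nfe2l2 (0.72 ± 0.40 SE, limma adjusted p = 0.0838) and Rpl39 (1.23 ± 0.63 SE, limma adjusted p = 0.0613) were not called above IgG in relapse, with TMM factors all 3 turned below 0, where Tbc1d8 and Nfe2l2 were called lower, and Fhit was called higher (1.12 ± 0.38 SE, limma adjusted p = 0.00518), with a negative sign under TMM factors.

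For Rpl39, IgG values exceeded anti-HA values in all groups but cure and relapse. IgG values of Rpl39 were 91.0 to 149 (median 107) in NI mice, 183, 185, 83.0 and 131 at initiation and 30.4 to 144 (median 73.7) at max. They were 32.7 to 185 (median 83.8) in remission, 26.7, 5.97, 2.72, 51.3 and 83.0 in cure, with 61.7, 43.8, 106 and 28.5 in relapse. In NI mice, at initiation, at max and in remission every IgG library exceeded every anti-HA library, and in cure the ranges overlapped. The anti-HA minus IgG difference of Rpl39 was -1.56 ± 0.51 (SE, limma adjusted p = 0.00419) in NI mice, -3.48 ± 0.63 (SE, limma adjusted p = 4.82e-07) at initiation, -3.16 ± 0.51 (SE, limma adjusted p = 3.26e-08) at max, -2.96 ± 0.45 (SE, limma adjusted p = 3.22e-09) in remission and 1.83 ± 0.56 (SE, limma adjusted p = 0.00206) in cure, where TMM factors gave -0.59. In relapse same-numbered anti-HA and IgG libraries deviated together, and with the replicate block the difference of Rpl39 was 1.23 (limma adjusted p = 0.0473), a call that the fit without the block did not make.

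Loss of the interferon gamma receptor was examined in a second table of 204 genes that the authors chose on those libraries. The labels name Ifngr without saying which chain; Ifngr1 is in the table. Anti-HA values of Ifngr1 were 81.0, 88.4, 127 and 76.7 in ko/fl libraries, against 299.9, 305, 299 and 232 in ko/wt libraries. Input values of Ifngr1 were 10.1, 10.7, 17.1 and 19.7 in ko/fl libraries, against 21.1, 15.0, 13.3 and 23.8 in ko/wt libraries. The ko/fl precipitates all lay below the ko/wt ones and were not at 0, and inputs overlapped; which exons are deleted is not in the labels.

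Of the 34 genes 7 are in that table, and in anti-HA libraries 4 were called higher in ko/fl than in ko/wt (36.3% of the 204 genes) and 3 lower (61.3%). Nearly all genes of that table are called in 1 direction or the other, as they were chosen on these libraries, so the p-values below are no independent evidence of a difference. Rad51b was 4.94, 15.2, 12.6 and 8.52 in ko/fl libraries, against 33.4, 43.5, 38.7 and 48.7 in ko/wt libraries. Every ko/fl library lay below every ko/wt library, at a log2 fold change of -1.98 ± 0.36 (SE, limma adjusted p = 0.000814). Fgl2 was 5.93, 7.62, 5.82 and 2.84 in ko/fl libraries, against 38.8, 51.3, 55.1 and 10.4 in ko/wt libraries. Again the genotypes did not overlap, and its log2 fold change was -2.43 ± 0.52 (SE, limma adjusted p = 0.00176). The ko/fl values of Fgl2 rest on 1 to 6 reads, and their mean of 5.55 was near the ko/fl input mean of 5.65. H2-M3 was 84.9, 82.3, 94.1 and 42.6 in ko/fl libraries, against 183, 238, 216 and 60.1 in ko/wt libraries. Replicate 4 was low in both genotypes and the ranges overlapped, at -1.07 ± 0.43 (SE, limma adjusted p = 0.0315), a call lost without ko/fl 4 or ko/wt 1, 2 or 3 (limma adjusted p from 0.0789 to 0.0955) and with edgeR and TMM factors (adjusted p = 0.156). With TMM factors the median over all 204 genes was -0.50, against -1.05 with the deposited size factors, and 4 of the 7 genes were called higher and 2 lower. Of all 204 genes, these factors gave 78 higher and 86 lower.

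Ccl3 was higher in ko/fl, at 68.2, 91.4, 70.8 and 62.5 in ko/fl libraries, against 18.4, 26.6, 38.7 and 23.8 in ko/wt libraries. All ko/fl libraries exceeded all ko/wt libraries, with a log2 fold change of 1.45 ± 0.29 (SE, limma adjusted p = 0.00121). Rpl39 was 16.8, 24.4, 20.4 and 19.9 in ko/fl libraries, against 11.6, 10.4, 5.45 and 6.22 in ko/wt libraries. The genotypes did not overlap, at 1.23 ± 0.34 (SE, limma adjusted p = 0.00682), while IgG values of Rpl39 were 4.75, 31.6, 43.5 and 37.8 in ko/fl libraries, against 30, 29.7, 34.7 and 25.6 in ko/wt libraries. Their IgG means of 29.4 in ko/fl and 29.99 in ko/wt libraries lay above the anti-HA means of 20.4 in ko/fl and 8.42 in ko/wt libraries. Wfdc17 was 21.7, 28.9, 38.8 and 11.4 in ko/fl libraries, against 10.7, 11.7, 3.63 and 2.07 in ko/wt libraries. The ranges overlapped narrowly, and its log2 fold change was 1.83 ± 0.54 (SE, limma adjusted p = 0.00892). IgG means of Wfdc17 were 5.5 in ko/wt libraries, beside an anti-HA mean of 7.01, and 0.70 in ko/fl libraries, beside 25.2. Fabp5 was 212, 260.5, 641 and 213 in ko/fl libraries, against 140, 162, 244 and 144 in ko/wt libraries. Its ranges overlapped, at 0.81 ± 0.36 (SE, limma adjusted p = 0.0454), and the call was lost without ko/fl 2 or 3 or ko/wt 1, 2 or 4 (limma adjusted p from 0.0581 to 0.126).

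**Figure D5:**
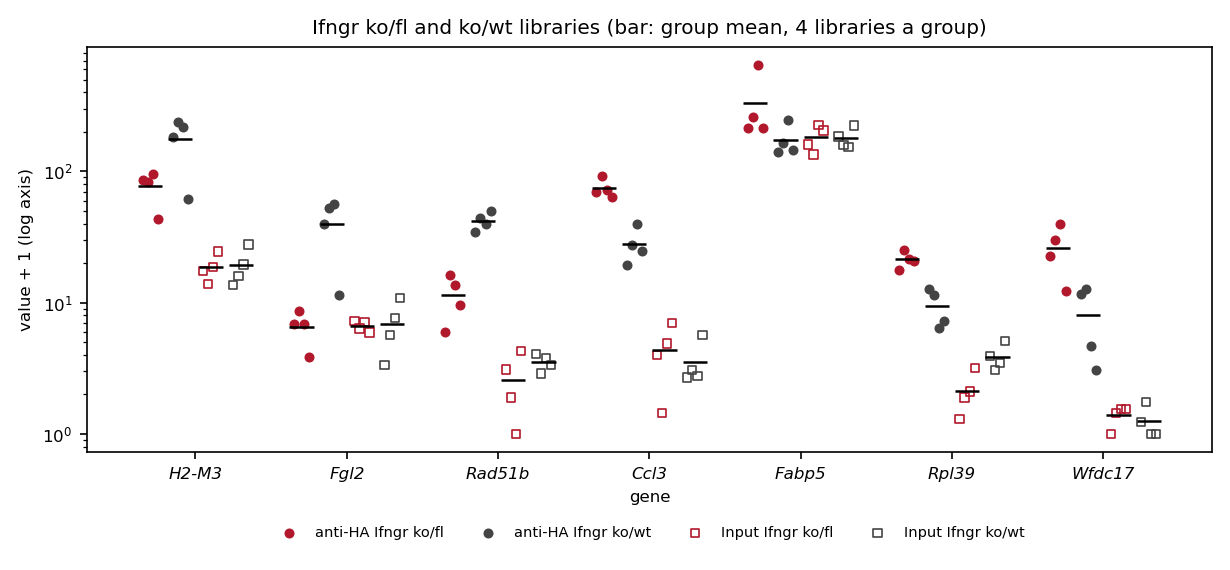
Values + 1 of single anti-HA and input libraries (points, log axis) with group means (bars) in Ifngr ko/fl and Ifngr ko/wt mice for the 7 genes measured in both tables. The 4 anti-HA ko/fl libraries lie below the 4 ko/wt libraries for Rad51b and Fgl2 and above them for Ccl3 and Rpl39.

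In the inputs of the same mice limma and edgeR with TMM factors called 0 of the 7 genes, and 1 of 7 passed an unadjusted p of 0.05, Rpl39 with 0.0148; of all 204 genes, 1 was called higher and 1 lower (0.49% each). Of the pathway lists, all 16 MHC class I genes of that table and all 8 MHC class II genes were called lower in ko/fl anti-HA libraries, with medians of -1.35 and -3.10 beside -1.05 over all genes, and of 8 chemokine genes 3 were called higher and 5 lower. Called higher were 7 of 8 disease-associated microglia genes (median 0.93) and 4 of 4 lipid handling genes (median 0.87), both lists with Fabp5.

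T cells sorted from brain by CD25, a chain of the interleukin-2 receptor, were compared between Ifngr ko/fl mice (6 CD25pos libraries) and ko/wt mice (5). Cre acts on the floxed allele of ko/fl mice in Cx3cr1-expressing cells. In the authors' deposited table of CD25pos cells, 21 of the 34 genes were measured and 0 had an adjusted p below 0.05 (0.209% of 8627 genes had); 12 of the 21 had a positive log2 fold change. The column of fold changes names the knockout, here ko/fl, before the control, here ko/wt. The column of p-values names them in the other order, so the direction was not settled here. In the authors' deposited table Pdcd1 had -0.68 (adjusted p = 0.114), Fabp5 1.34 (0.345), B2m 0.33 (0.45), Ctss 0.20 (0.601) and H2-M3 -0.025 (0.985).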

How the data were processed

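The 2 expression tables hold a signal per gene and library that the authors deposited; it was found from the values to be reads divided by 1 factor per library (all values fell within 0.01 of a whole step), and the sources used here name no aligner, counter, gene choice or clustering method. Coordinates are on mm10, per the submitters' processing notes. The log2 fold changes and adjusted p-values of sorted T cells are those the authors deposited, and the tool is not stated.

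Values were tested as log2(value + 1) with limma 3.58.1 (trend, R 4.3.3) on the whole table, with Benjamini-Hochberg adjustment over 716 or 204 genes and a call at an adjusted p below 0.05. Stage inputs shared 1 fit over the input libraries, and anti-HA against input or IgG was fitted over all 99 libraries. edgeR 4.0.16 (quasi-likelihood) was run on the recovered reads as an alternative. Other alternatives were pseudocounts of 0.1 and 10, a minimum mean of 10, a replicate block, and each library left out in turn. Same-numbered anti-HA and input libraries deviated together in 29 of 33 pairs (correlation over 0.1, median 0.23, lowest -0.13) and 25 of 33 correlated best with their own number; every pair exceeded 0.1 at initiation, max and remission, and for anti-HA and IgG at initiation and relapse. This pairing comes from the data, as the labels do not say what a number stands for. The scripts were tested on simulated data. A group with 0 reads was set to a floor of 3 reads over the group, which covers counting error only. No column of libraries was left unmapped (0).

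Members and lists were chosen with earlier results of these data known. The text names members that lead on late anti-HA level, on difference from NI, on input p, in the fixed lists, on Ifngr p, at both ends of anti-HA over input, at the low end of anti-HA over IgG, or on relapse minus remission, 31 genes in all; 1 of the 34 genes counts in the totals but is not reported here, and Fam46c, Rec114 and Slc39a4 are named to account for every other member. The labels do not say that replicates are separate mice, so p-values measure the spread between libraries, which may be technical.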

Additional observations from a re-analysis of the deposited data

Results flagged for a closer look

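Within a group of 4 to 10 libraries, 17 of 224 groups examined held a library whose gap to its neighbour was large for the range of the group, and chance alone gives about 1 in 20. Several belong to the same libraries. Max 6 was lowest for B2m (623.3, with the others from 2476 to 3685), Igsf6 (21.99, with the others from 76.67 to 100.9) and Pros1 (18.69, with the others from 74.48 to 86.99) in anti-HA libraries. Pros1 was also lowest in initiation 3 (13.52, with the others from 111 to 155.9) and in remission 5 (16.63, with the others from 69.26 to 200.5). NI 5 was lowest for Rpl39 (10.92, with the others from 35.89 to 61.03) and Prcp (63.08, with the others from 99.55 to 130.6).

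High anti-HA values were those of Fgl2 in initiation 2 (180.2, with the others from 20.07 to 29.28), Igsf6 in relapse 2 (93.01, with the others from 69.78 to 71.66) and Lag3 in NI 4 (827.5, with the others from 494.9 to 569.9). Low ones were Ccl3 in relapse 3 (16.77, with the others from 31.71 to 33.17), Bcl2l11 in relapse 1 (19.45, with the others from 38.02 to 43.12), Mrc1 in cure 3 (15.91, with the others from 54.81 to 75.73), Pla2g2d in max 2 (24.82, with the others from 51.71 to 77.59) and H2-M3 in Ifngr ko/fl 4 (42.6, with the others from 82.28 to 94.12). Among inputs, H2-M3 was high in NI 2 (7.756, with the others from 4.718 to 5.609) and Igsf6 was at 0 in remission 4 (the others from 3.364 to 8.825).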

How the results depend on the processing

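With edgeR and TMM factors the genes called higher in inputs numbered 7 at initiation and 10 in remission; those higher in anti-HA than in input numbered 22 in relapse, 10 at max, 8 at initiation and 19 in NI mice; those higher than IgG numbered 16 in relapse, 17 in cure, 18 in remission, 14 at max, 7 at initiation and 17 in NI mice. Counts over all genes with TMM factors are given with these results above. Of the log2 differences given above, these turned negative under the same TMM factors, which set signs relative to the typical gene of the table. Against input in relapse they were Tbc1d8 (-0.9197), Fhit (-1.049), Cpq (-0.9159), Bcl2l11 (-0.6592) and Fabp5 (-0.3871), beside B2m and Cd83, whose differences are plotted only, and in NI mice Fgl2 (-2.147). Against IgG they were Tbc1d8 (-2.281), Nfe2l2 (-1.693), Fhit (-1.202) and Rpl39 (-0.7491) in relapse and Rpl39 (-0.5929) in cure. In inputs against NI they were Fabp5 (-0.4634) and Mmp14 (-0.05383) at max and Fabp5 (-0.3166) in remission. Differences near 0 also changed sign elsewhere: Fgl2 against input in NI mice with a pseudocount of 10 (-0.000608) and with edgeR and the deposited size factors (-0.1987), and input Fabp5 in remission with libraries numbered 4 and above (-0.1613). Genes with a higher anti-HA mean at initiation than in NI mice became 11, an alternative chosen after seeing the data. The cause was not tested. A minimum mean of 10 left 13 of the 34 genes in the input fit and 3 called at initiation, 7 at max and 5 in remission, then 4 for cure and 3 for relapse. A pseudocount of 10 left 6 in cure, and libraries numbered 1 to 3 alone, chosen after seeing the data, left 10 in remission.

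Leaving out each library in turn gave 5 to 13 genes higher in inputs at initiation, 20 to 24 at max and 14 to 20 in remission, then 9 to 18 for cure and 8 to 11 for relapse; 5, 20, 13, 9 and 7 of the calls held in every one of these fits. The 77 results of single genes were recomputed 1342 times; 1245 kept direction and call, 44 lost the call, 22 gained one and 31 turned sign. With each library left out, signs turned for input Fabp5 at max (-0.08451 to 0.5277) and in remission (-0.1229 to 0.4052), Fgl2 against input in NI mice (-0.06798 to 0.4351) and Tbc1d8 against IgG in relapse (-0.124 to 0.2399).

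Same-numbered inputs of a disease stage and of NI mice correlated above 0.1 in at most 4 of 6 pairs, and those of the Ifngr genotypes in 2 of 4. In remission 5 of 6 inputs correlated best with their own number among NI inputs. The same held for 2 of 4 at initiation, 1 of 6 at max, 0 of 5 in cure and 1 of 4 in relapse. Outside remission the block thus rests on shared numbers only. With the replicate block, 13, 23, 15, 12 and 10 genes were higher in inputs from initiation to relapse, 4 were higher and 3 lower in Ifngr ko/fl than in ko/wt libraries, and counts against input and IgG moved by at most 1 gene; beside Rpl39 against IgG in relapse, the block changed 2 calls of single genes, input Lag3 in remission (0.55, limma adjusted p = 0.133) and input H2-M2 at initiation (1.18, limma adjusted p = 0.0311). With 424 to 6848 reads over the 34 genes per input, low genes such as H2-M2 and Pdcd1 rest on few reads.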
